A study of Mus musculus with 20 samples.

Results

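The interaction of propafenone with anti-PD-1 was measured across all expressed genes of B16F10 tumours, a mouse melanoma line grown in immunocompetent C57BL/6 mice. On the log2 scale it is the mean of the combination minus propafenone minus anti-PD-1 plus IgG, so 0 means that the effects of the 2 agents add up and a gene is at the product of its 2 single fold changes. A value above 0 means that the combination level was above that product (above additivity), and a value below 0 that it was under it. All genes that passed a filter on low counts were members, 15875 of the 32285 in the table, and all 20 of 20 libraries entered each value. The groups were tumours of mice given propafenone with anti-PD-1 (combination), propafenone, anti-PD-1, or control IgG, with 5 libraries in each. By the design text mice got either anti-PD-1 or IgG by intraperitoneal injection, and propafenone or none on top. The labels give wild type as genotype, a start at a tumour volume near 100 mm3 and excision on day 16. Dose, schedule, sex and age are not given in the sources used here, nor is whether each tumour came from its own animal, so p-values measure the spread between these libraries.

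Propafenone is an antiarrhythmic drug that blocks the cardiac sodium channel and, more weakly, beta-adrenergic receptors. PD-1 is an inhibitory receptor of activated T cells, and blocking it with an antibody releases T cells that see tumour antigen. Such T cells secrete interferon gamma, which acts in part through Irf1 to induce guanylate-binding proteins, immunity-related GTPases, chemokines and the antigen presentation genes. The series title names ferroptosis, a death by iron-dependent lipid peroxidation that Gpx4 holds back, together with mitochondria and synergy with immunotherapy. An additive model is the baseline against which such synergy would show in expression.

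Library totals were 61.3 to 64.5 M (mega) expected counts in combination, 61.5 to 63.3 M in propafenone, 56.0 to 62.8 M in anti-PD-1 and 58.7 to 61.8 M in IgG libraries. Levels are in CPM, the count of a gene relative to a library size scaled by TMM. Melanocyte markers were abundant in every library: Tyr, the rate-limiting enzyme of melanin synthesis, averaged 969.6 CPM in combination, 974 CPM in propafenone, 976 CPM in anti-PD-1 and 885 CPM in IgG tumours. Principal component 1 of the log2 values held 30.0% of the variance, and on it combination tumours lay at 23.6 to 34.8, propafenone tumours at -40.0 to 10.9, anti-PD-1 tumours at -3.24 to 13.2 and IgG tumours at -33.1 to -1.47. In bulk tumour RNA, fewer cells of a type and less RNA per cell cannot be told apart. Summed skeletal muscle markers were 59.0 to 701 CPM in combination, 28.7 to 104 CPM in propafenone, 22.4 to 391 CPM in anti-PD-1 and 16.9 to 119.6 CPM in IgG tumours. Summed keratinocyte markers reached 53.7 CPM in combination 4, 37.1 CPM in propafenone 2 and 110.0 CPM in anti-PD-1 3, against at most 13.8 CPM in IgG tumours. Their share in the results on other genes was not tested beyond fits with a muscle covariate, without the libraries above 1 CPM of Krt5 and without those above 1000 CPM of Hbb-bs, in which 0, 1 and 0 interactions were called. The 1 was Rasal2, at -2.96 (edgeR adjusted p = 0.00011), in a fit that kept 2 combination libraries. Libraries are called by group and replicate number.

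No gene departed from additivity past the threshold. Of 15875 genes, 0 (0%) had an interaction with a Benjamini-Hochberg adjusted p under 0.05 in edgeR's quasi-likelihood test, and the lowest adjusted p was 0.99. At an unadjusted p under 0.05 there were 482 genes (3.04%), 207 above additivity (1.30%) and 275 below it (1.73%). With no interaction anywhere, a share of about 0.05 would fall under that threshold, so 3.04% is no excess. Genes marked below by an unadjusted p under 0.05 therefore do not show an interaction by that mark alone. Values above 0 were found for 7669 genes (48.3%), and the median log2 interaction was -0.0097. Limma with voom and limma on log2 TPM also called 0 genes. DESeq2 called 2, Pcdhga10 and Krt1, with fitted log2 interactions of 21.9 and -23.7 (DESeq2 adjusted p = 0.037 for each), sizes that a log2 model gives to genes with no counts in a group.

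The test bounded departures closely for well expressed genes and hardly at all for scarce ones. The median standard error of the log2 interaction was 0.15 for genes averaging at least 10 CPM, 0.34 for genes of 1 to 10 CPM and 0.80 for genes under 1 CPM. The 95% interval, which is per gene and not adjusted for the number of genes, stayed within 2-fold of additivity for 10670 genes (67.2%) and within 1.5-fold for 7688 (48.4%). It stayed within 2-fold for 8976 of 9395 genes of at least 10 CPM (95.5%), for 1607 of 3076 genes of 1 to 10 CPM (52.2%) and for 87 of 3404 genes under 1 CPM (2.56%). Most lymphocyte genes are in the scarce class: the median member of the T cell list averaged 0.384 CPM. The median standard error of that list was 1.0. Better expressed lists also had wide intervals: the interferon gamma list, at a median of 27.1 CPM, had a median standard error of 0.88, and the MHC class II list, at 28.4 CPM, had 1.08. Counting on a linear CPM scale in place of log2 turned the sign of the interaction for 497 genes (3.13%).

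**Figure D1:**
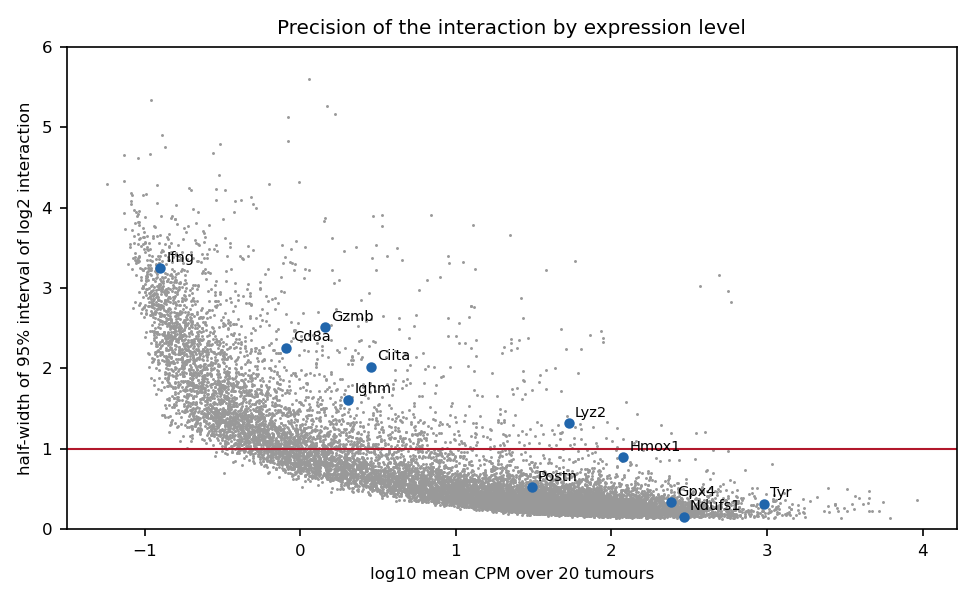
Half-width of the 95% interval of the log2 interaction (vertical axis) against log10 of mean CPM over 20 tumours (horizontal axis) for the genes tested, with half-widths above 6 not drawn; the line at 1 marks 2-fold. Named genes are in blue: Gpx4, Ndufs1 and Tyr lie well under the line, and Cd8a, Gzmb and Ifng well above it.

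The same interaction is the difference between the effect of anti-PD-1 on a propafenone background and its effect on an IgG background. Anti-PD-1 given with propafenone (combination minus propafenone) changed 616 genes (3.88%) at an adjusted p under 0.05, 265 higher (1.67%) and 351 lower (2.21%), while anti-PD-1 alone (anti-PD-1 minus IgG) changed 0, with 1203 at an unadjusted p under 0.05 (7.58%). Propafenone given with anti-PD-1 (combination minus anti-PD-1) changed 0, with 1552 at an unadjusted p under 0.05 (9.78%), and propafenone alone (propafenone minus IgG) changed 0, with 754 (4.75%). DESeq2 called 1466, 21, 7 and 3 genes in these 4 comparisons, in the order given, and voom called 937 in the first. Calls in one background and not in the other do not show that the effects differ, and the test of that difference is the interaction, which called 0. The 616 calls also rested on single libraries. Without propafenone 1, 3, 4 or 5 there were 289, 4, 1916 and 23 calls, without combination 1 to 5 there were 155, 141, 114, 95 and 27, and without IgG 4 or 5, which enter only the shared spread, 394 and 405. With library totals in place of TMM the split of calls was 258 higher and 89 lower.

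These comparisons use disjoint sets of 10 libraries, so their effects can be set side by side. Over the 12471 genes of at least 1 CPM, the effect of anti-PD-1 with propafenone and without it had the same sign for 70.9% of genes, with a Pearson correlation of 0.72 and a Spearman correlation of 0.59 across genes, which are not independent replicates. The corresponding values for the effect of propafenone were 60.9%, 0.31 and 0.27. Of the 265 genes called higher after anti-PD-1 on propafenone, 257 (97.0%) were also higher after anti-PD-1 on IgG, and of the 351 called lower 343 (97.7%) were also lower. Among all genes tested 69.7% kept their sign. The median log2 change of the 265 genes was 1.32 on propafenone and 0.55 on IgG, and that of the 351 genes was -0.45 and -0.19. Because the genes were chosen by their change on propafenone, the first value of each pair is inflated by that choice, and the gap between the pair is no measure of synergy. Skeletal muscle markers take part in the likeness, with a median log2 change of 2.88 on propafenone and 2.69 on IgG over 19 members.

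**Figure D2:**
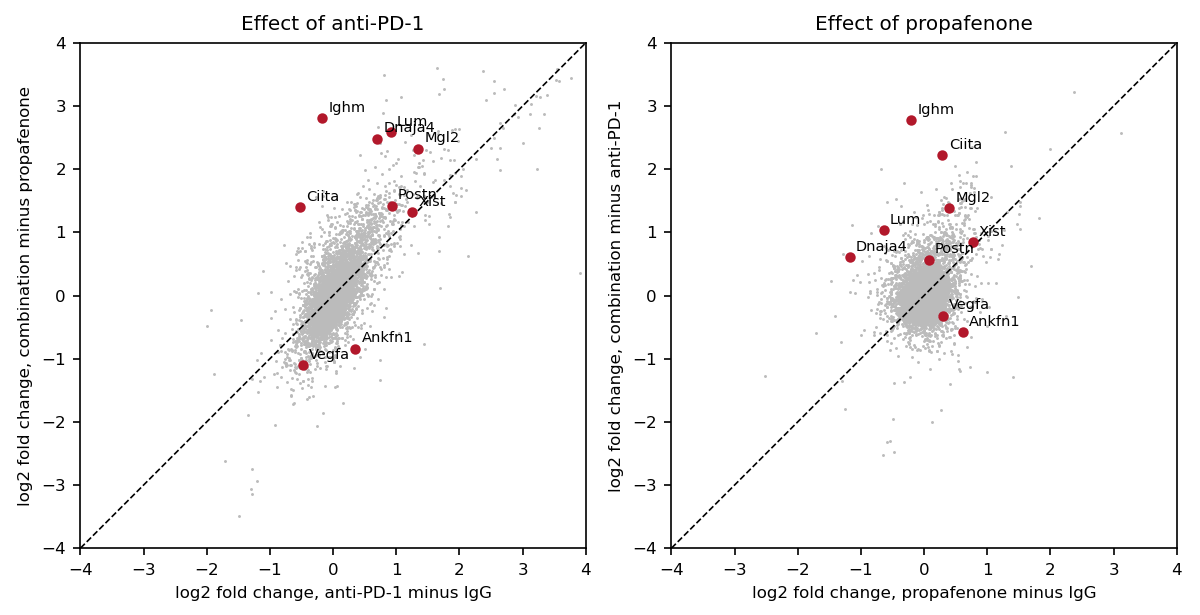
Effect of anti-PD-1 (left) and of propafenone (right) as log2 fold change with the other agent (vertical axis) against without it (horizontal axis) for genes of at least 1 CPM, with additivity dashed; genes beyond 4 are outside the frame. Anti-PD-1 effects spread along the diagonal (Pearson correlation 0.72) more than propafenone effects do (0.31); Ighm and Ciita lie above the line and Ankfn1 below it.

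Ighm, the constant region of the IgM heavy chain made by B cells (chr12:113418558-113422730, minus strand, GRCm38), had the smallest interaction p above additivity among named genes. Its levels were 5.56, 3.57, 8.0, 5.76 and 5.10 CPM in combination tumours, 0.588, 1.12, 0.309, 1.53 and 0.440 CPM in propafenone tumours, 1.05, 0.288, 0.765, 0.898 and 1.06 CPM in anti-PD-1 tumours, and 0.294, 1.0, 0.232, 2.56 and 0.516 CPM in IgG tumours. All 5 combination tumours stood above all 15 others, and the other 3 groups overlapped. The combination mean of 5.60 CPM was set against 0.705 CPM expected from the single agents, a log2 interaction of 2.98 (SE 0.77, 95% interval 1.37 to 4.59), edgeR adjusted p = 0.99. Without 1 library the value ran from 2.14 to 3.36. Against propafenone tumours Ighm rose by 2.81 log2 units (SE 0.56, adjusted p = 0.022), and this call held in 17 of the 20 fits without 1 library. Only 10 of those 20 libraries were combination or propafenone tumours. The others entered this comparison only through the shared spread, here and for all such counts below.

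The 10 genes above additivity that the naming rule picked were Ighm, Dnaja4, Lum, Lama2, Igf1r, Arhgap25, Pmp22, Cbfa2t3, Myoz1 and Itih5, and each kept its direction in the 20 fits without 1 library, which the rule required. The rule picks by smallest interaction p, so these interaction values are inflated by that choice. For the same reason their unadjusted intervals leave out 0. None of the 10 passed the test, where the lowest edgeR adjusted p of any gene was 0.99. Lum, the collagen-binding proteoglycan lumican of fibroblasts (chr10:97565128-97572703, plus strand), had 3.70, 6.93, 10.1, 5.26 and 4.82 CPM in combination tumours, 0.461, 1.51, 0.699, 1.43 and 1.01 CPM in propafenone tumours, 3.13, 3.15, 2.81, 2.6 and 3.34 CPM in anti-PD-1 tumours, and 0.834, 1.98, 0.830, 3.04 and 1.31 CPM in IgG tumours. Combination tumours did not overlap with any other group. The mean of 6.16 CPM stood against 1.92 CPM expected, an interaction of 1.68 (SE 0.51, 95% interval 0.62 to 2.73). Lum rose against propafenone by 2.59 log2 units (SE 0.37, adjusted p = 0.0047), a call that held in 20 of the 20 fits without 1 library. Dnaja4, a heat shock co-chaperone, averaged 2.10 ± 0.861 CPM in combination, 0.374 ± 0.160 CPM in propafenone, 1.38 ± 0.440 CPM in anti-PD-1 and 0.851 ± 0.265 CPM in IgG tumours (± is the SD, n = 5 tumours per group here and below), with an interaction of 1.78 (95% interval 0.77 to 2.79). Here propafenone tumours were the low group, at 0.620, 0.299, 0.276, 0.446 and 0.228 CPM, all under the other 15. Lama2, a laminin chain of basement membranes, averaged 4.98 ± 0.489 CPM in combination, 2.45 ± 0.504 CPM in propafenone, 3.30 ± 0.363 CPM in anti-PD-1 and 2.75 ± 0.489 CPM in IgG tumours, and its 5 combination tumours lay above the other 15. Its interaction was 0.76 (95% interval 0.28 to 1.24). Arhgap25, a GTPase-activating protein of blood cells, averaged 3.02 CPM in combination, 1.44 CPM in propafenone, 1.70 CPM in anti-PD-1 and 1.66 CPM in IgG tumours, again with the combination apart and an interaction of 1.03 (95% interval 0.37 to 1.69). Igf1r, the receptor for insulin-like growth factors, was the most abundant of the 10, at 42.4 CPM in combination, 35.1 CPM in propafenone, 34.8 CPM in anti-PD-1 and 40.1 CPM in IgG tumours, with an interaction of 0.47 (95% interval 0.17 to 0.78). Pmp22, a myelin protein, had an interaction of 0.86 (95% interval 0.30 to 1.42), Cbfa2t3, a transcriptional corepressor, 1.27 (95% interval 0.44 to 2.10), Myoz1, a muscle Z-disc protein, 1.96 (95% interval 0.66 to 3.27), and Itih5 1.73 (95% interval 0.58 to 2.89). Summed skeletal muscle markers, given above, were high in 4 of 5 combination tumours beside Myoz1.

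The 10 genes below additivity were Ankfn1, Usp54, Bdh1, Ganc, Cript, Trnp1, Tnks2, Tiprl, Sugt1 and Ndufs1, and 9 of them averaged over 10 CPM, where intervals are narrow. They were picked by the same rule, so the size of their interactions is inflated too and their unadjusted intervals leave out 0. None of these 10 passed the test. Ankfn1 (chr11:89390223-89777653, minus strand) had 28.8, 32.2, 16.4, 30.9 and 30.4 CPM in combination tumours, 62.0, 51.7, 48.5, 38.2 and 48.2 CPM in propafenone tumours, 49.4, 28.2, 32.6, 65.6 and 31.9 CPM in anti-PD-1 tumours, and 28.5, 27.1, 29.7, 41.6 and 35.9 CPM in IgG tumours. All 5 combination tumours lay below all 5 propafenone tumours and overlapped with the anti-PD-1 and IgG tumours. The combination mean of 27.7 CPM stood against 63.4 CPM expected, an interaction of -1.19 (SE 0.30, 95% interval -1.83 to -0.56). Ndufs1, a subunit of respiratory complex I that carries iron-sulfur clusters, had 290.0, 257, 288, 276 and 277 CPM in combination tumours, 323, 317, 318, 296 and 314 CPM in propafenone tumours, 314, 264, 281, 300.1 and 299 CPM in anti-PD-1 tumours, and 273, 282, 284, 289 and 283 CPM in IgG tumours. Combination tumours lay below all propafenone tumours and overlapped with the others, their mean was 277 CPM against 324 CPM expected, and the interaction was -0.22 (SE 0.07, 95% interval -0.38 to -0.07). Bdh1, the mitochondrial enzyme of ketone body metabolism, averaged 68.2 CPM in combination, 87.0 CPM in propafenone, 83.6 CPM in anti-PD-1 and 79.8 CPM in IgG tumours, with an interaction of -0.42 (95% interval -0.67 to -0.16). Ganc, a neutral alpha-glucosidase, averaged 63.1 CPM in combination, 88.8 CPM in propafenone, 71.3 CPM in anti-PD-1 and 73.7 CPM in IgG tumours, with an interaction of -0.45 (95% interval -0.72 to -0.17). Sugt1, a co-chaperone of Hsp90, and Cript, a small PDZ-binding protein, were lowest in all 5 combination tumours, with interactions of -0.26 (95% interval -0.44 to -0.09) and -0.29 (95% interval -0.47 to -0.11). Tnks2, a tankyrase of the Wnt pathway, had an interaction of -0.26 (95% interval -0.43 to -0.09), Tiprl, a regulator of type 2A phosphatases, -0.37 (95% interval -0.61 to -0.13), Usp54 -0.40 (95% interval -0.65 to -0.16) and Trnp1 -0.93 (95% interval -1.52 to -0.34). Against propafenone tumours Ganc fell by 0.49 log2 units (adjusted p = 0.022, held in 18 of the 20 fits without 1 library).

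**Figure D3:**
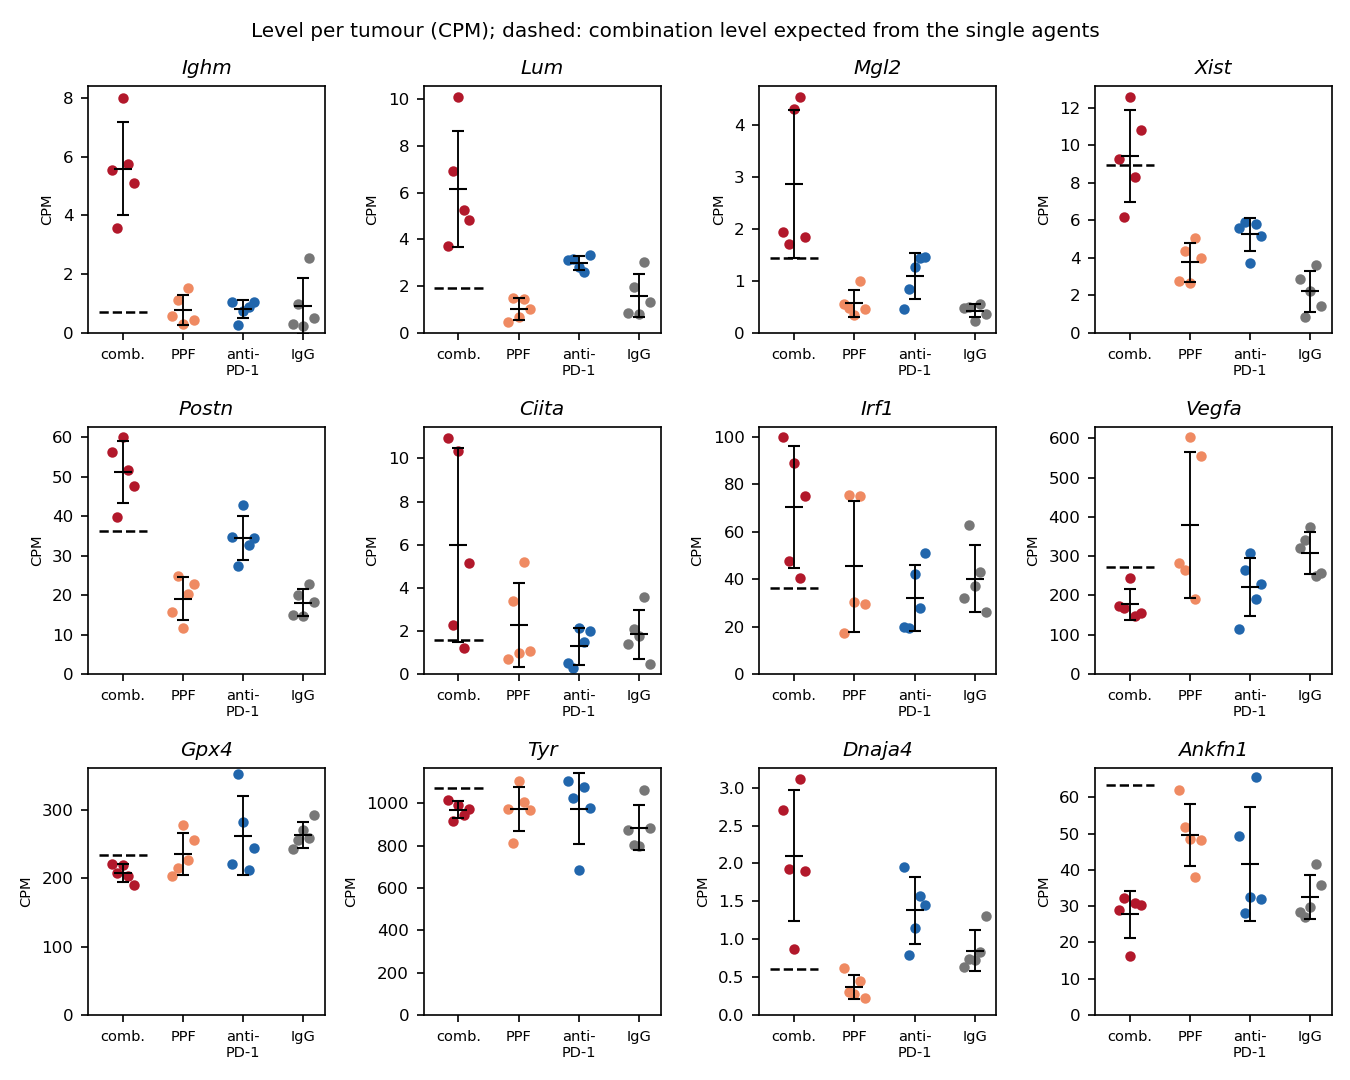
CPM (vertical axis) in each of 5 tumours per group for 12 genes, with the group mean and SD in black; the dashed line over the combination is its level expected if the effects of propafenone (PPF) and anti-PD-1 multiply. For Ighm, Lum and Mgl2 all 5 combination tumours lie above the expected level, for Ankfn1 all 5 lie below it, and for Xist the mean of 9.43 CPM lies near the expected 8.95 CPM.

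Genes of the interferon gamma response lay above additivity as a list: 19 of 19 measured members had a positive interaction, beside 48.3% of all genes, with a median of 0.96 beside -0.0097. None of the 19 passed the test, and none was under an unadjusted p of 0.05. The members move together between tumours, so 19 of 19 is not 19 separate observations. This list and those below were chosen with earlier results of these data known, so such counts are no independent evidence. Leaving out 1 library took the median from 0.68 without combination replicate 1 to 1.34 without propafenone replicate 4. The component effects ran in opposite directions: members had a median log2 difference of 0.52 for combination minus propafenone and of -0.37 for anti-PD-1 minus IgG. The list score, the mean over members of centred log2(CPM + 0.5), was 1.70, 0.0625, 1.44, 0.0179 and 0.857 in combination tumours, -1.37, 1.04, -0.309, 1.29 and -0.350 in propafenone tumours, -1.35, -2.06, 0.293, -0.708 and 0.428 in anti-PD-1 tumours, and -0.446, 0.707, -0.355, 0.322 and -1.2 in IgG tumours. Combination 1, 3 and 5 and propafenone 2 and 4 were high, combination 2 and 4 lay within the range of every other group, and the groups overlapped.

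Irf1, the transcription factor that carries much of the interferon gamma response (chr11:53770014-53778374, plus strand), had 100.0, 47.8, 89.0, 40.3 and 75.2 CPM in combination tumours, 17.2, 75.3, 30.2, 75.2 and 29.5 CPM in propafenone tumours, 19.99, 19.3, 42.3, 27.9 and 51.0 CPM in anti-PD-1 tumours, and 32.1, 62.9, 37.1, 42.8 and 26.2 CPM in IgG tumours. The highest combination tumours exceeded all others and the lowest did not. The mean of 70.5 CPM stood against 36.3 CPM expected, an interaction of 0.96 (SE 0.57, 95% interval -0.23 to 2.15). Nlrc5, the transactivator of MHC class I genes, averaged 28.9 ± 12.0 CPM in combination, 20.9 ± 11.3 CPM in propafenone, 10.5 ± 7.30 CPM in anti-PD-1 and 16.9 ± 8.79 CPM in IgG tumours, with an interaction of 1.15 (95% interval -0.34 to 2.65). Cxcl9, a chemokine that attracts activated T cells, averaged 28.6 ± 12.5 CPM in combination, 20.2 ± 18.3 CPM in propafenone, 17.0 ± 16.8 CPM in anti-PD-1 and 15.9 ± 9.37 CPM in IgG tumours, with an interaction of 0.41 (95% interval -1.86 to 2.67). Each of these intervals includes both additivity and a departure of over 2-fold.

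Promoter sequences of 14 of the 19 tested members were found by symbol in a RefSeq table of GRCm38.p6, and 3 are shown because they carry the elements through which interferon acts. The 250 bases before each annotated start were searched on both strands for TTCNNNGAA, the core of the gamma-activated site, and for GAAA, 2 bases of any kind and GAAA, a core of the interferon-stimulated response element bound by Irf factors. At least 1 promoter of the gene held the first in 8 of 14 members (57.1%), beside 8.13% of all 27025 genes in the table, the second in 10 of 14 (71.4%), beside 3.46%, and both in 5 of 14 (35.7%), beside 0.400%. The list was made from genes known to answer interferon, so these shares describe the list and not the tumours. The last 120 bases before the start are given 5′ to 3′, with motif matches in capitals. In Irf1 (chr11:53769894-53770013, plus strand) a gamma-activated site begins 90 bases before the start. In Igtp (chr11:58199436-58199555, plus strand) and Irgm2 (chr11:58214857-58214976, plus strand), which encode immunity-related GTPases and lie next to each other, it begins 45 and 75 bases before the start and a response element follows.
Irf1: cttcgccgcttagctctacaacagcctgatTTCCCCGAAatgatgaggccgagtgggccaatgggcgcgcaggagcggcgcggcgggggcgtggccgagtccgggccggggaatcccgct
Igtp: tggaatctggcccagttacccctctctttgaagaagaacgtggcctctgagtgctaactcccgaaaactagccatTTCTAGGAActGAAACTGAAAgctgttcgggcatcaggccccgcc
Irgm2: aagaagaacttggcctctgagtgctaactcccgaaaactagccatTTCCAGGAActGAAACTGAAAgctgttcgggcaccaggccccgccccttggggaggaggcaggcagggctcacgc
Igtp averaged 107 ± 69.1 CPM in combination, 71.9 ± 60.9 CPM in propafenone, 32.2 ± 27.2 CPM in anti-PD-1 and 43.0 ± 27.4 CPM in IgG tumours, with an interaction of 0.98 (95% interval -1.25 to 3.22). Irgm2 averaged 65.6 ± 35.0 CPM in combination, 39.1 ± 31.1 CPM in propafenone, 22.7 ± 16.3 CPM in anti-PD-1 and 24.9 ± 11.0 CPM in IgG tumours, with an interaction of 0.87 (95% interval -0.87 to 2.62). Both had their highest mean in the combination and their lowest in anti-PD-1 tumours, as Irf1 did, and none of the 3 passed the test. The annotations of Igtp and Irgm2 overlap on the same strand, so reads may have been split between them.

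Antigen presentation genes, most of which answer interferon gamma, were also mostly above additivity without a call. Lists share genes, such as Ciita, Nlrc5, Ctss and Irf8, so their counts are not independent. For MHC class II, 8 of 8 members were positive with a median of 1.15, and for MHC class I 13 of 15 with a median of 0.62. The class II median ran from 0.45 without IgG replicate 2 to 2.01 without anti-PD-1 replicate 3, and the class I median from 0.31 without IgG replicate 2 to 0.91 without anti-PD-1 replicate 3. Ciita, the master transactivator of class II genes and also a member of the interferon gamma list, had 10.9, 2.29, 10.3, 1.2 and 5.13 CPM in combination tumours, 0.716, 3.37, 0.959, 5.18 and 1.08 CPM in propafenone tumours, 0.511, 0.288, 2.11, 1.5 and 1.98 CPM in anti-PD-1 tumours, and 1.39, 2.07, 1.74, 3.56 and 0.461 CPM in IgG tumours. Combination tumours held both the highest values and values inside the range of the other groups. Its interaction was 1.93 (SE 0.97, 95% interval -0.09 to 3.95), the mean of 5.98 CPM standing against 1.57 CPM expected. H2-Eb1, a class II beta chain, averaged 47.2 ± 28.9 CPM in combination, 20.5 ± 16.8 CPM in propafenone, 23.8 ± 24.9 CPM in anti-PD-1 and 25.2 ± 25.2 CPM in IgG tumours, with an interaction of 1.29 (95% interval -1.10 to 3.67). B2m, the light chain of class I, averaged 499 ± 149 CPM in combination, 423 ± 97.7 CPM in propafenone, 412 ± 230.1 CPM in anti-PD-1 and 467 ± 178 CPM in IgG tumours, with an interaction of 0.42 (95% interval -0.56 to 1.40). Psmb8, an immunoproteasome subunit, and H2-Q4 had interactions of 1.35 (95% interval -1.0 to 3.71) and 0.69 (95% interval -0.31 to 1.69).

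T cell genes gave no call, and their intervals were wide. 10 of 17 T cell list members were positive with a median of 0.13, a sign that changed in 5 of 20 fits without 1 library. Icos, a costimulatory receptor, was the 1 member at an unadjusted p under 0.05, with an interaction of -3.14 (95% interval -5.98 to -0.30). Cd8a, the co-receptor of cytotoxic T cells, had 3.31, 0.268, 1.66, 0.814 and 1.17 CPM in combination tumours, 0.382, 0.724, 0.455, 1.27 and 0.619 CPM in propafenone tumours, 0.320, 0, 1.23, 0.0946 and 0.999 CPM in anti-PD-1 tumours, and 0.262, 1.23, 0.531, 0.716 and 0.221 CPM in IgG tumours. All groups overlapped, and the interaction was 1.22 (SE 1.08, 95% interval -1.04 to 3.48). Among cytotoxic effector genes 9 of 11 were positive, with a median of 0.60, which ran from 0.19 without combination replicate 1 to 1.05 without anti-PD-1 replicate 3. Gzmb, a granzyme, had an interaction of 0.10 (95% interval -2.41 to 2.61), Prf1, the pore protein perforin, 0.60 (95% interval -1.73 to 2.94). Ifng, interferon gamma itself, averaged 0.185 CPM in combination, 0.130 CPM in propafenone, 0.0391 CPM in anti-PD-1 and 0.148 CPM in IgG tumours, with an interaction of 2.35 (95% interval -0.90 to 5.60). Of 8 NK cell markers 4 were tested, and Ncr1, Klre1, Klra8 and Klra4 were not. Those tested include Tyrobp, also in the macrophage and monocyte list, and Gzma, also in the cytotoxic effector list, so they are not specific to NK cells. Their median was 0.07. Its sign changed in 9 of 20 fits without 1 library (-0.17 without IgG replicate 4 to 0.65 without anti-PD-1 replicate 5). The NK and T cell medians both changed sign without the libraries above 1 CPM of Krt5. Checkpoint genes had 13 of 14 positive and a median of 0.53, which ran from 0.10 without IgG replicate 2 to 0.69 without IgG replicate 5. Pdcd1, which encodes PD-1, averaged 1.15 ± 0.801 CPM in combination, 0.583 ± 0.389 CPM in propafenone, 0.596 ± 0.649 CPM in anti-PD-1 and 0.444 ± 0.479 CPM in IgG tumours, with an interaction of 0.56 (95% interval -1.81 to 2.93). Cd274, which encodes its ligand PD-L1, averaged 12.8 ± 3.88 CPM in combination, 9.01 ± 2.59 CPM in propafenone, 7.04 ± 2.81 CPM in anti-PD-1 and 7.05 ± 3.24 CPM in IgG tumours, with an interaction of 0.51 (95% interval -0.42 to 1.44). Cd96, a receptor of T and NK cells, was the 1 checkpoint member at an unadjusted p under 0.05, with an interaction of 3.48 (95% interval 0.08 to 6.88) at mean levels under 1 CPM in every group. None of these genes passed the interaction test or the test of combination against propafenone.

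**Figure D4:**
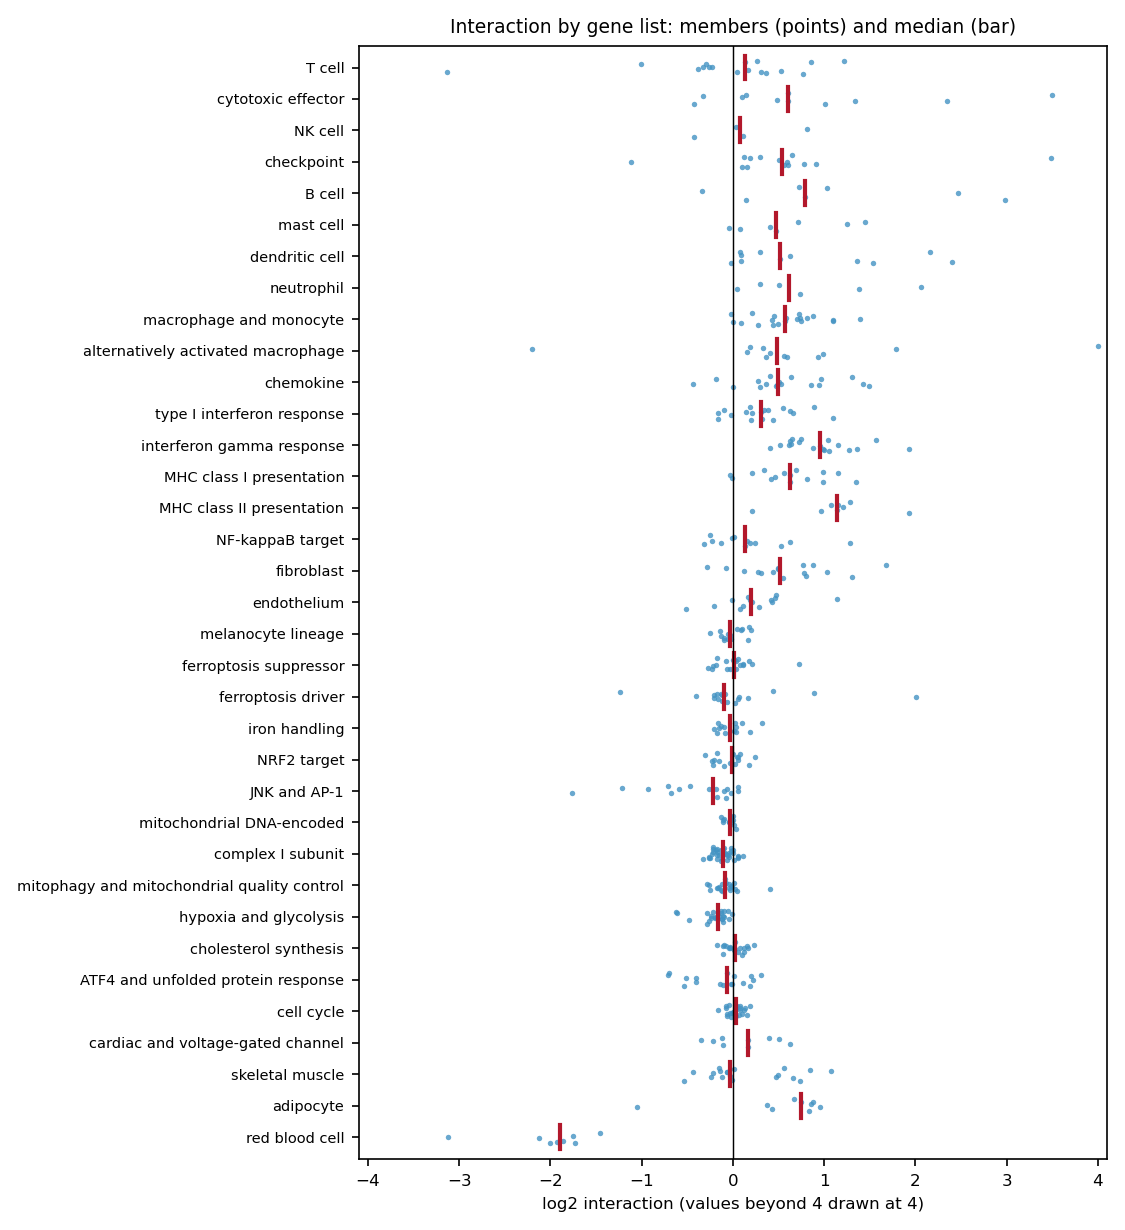
Log2 interaction (horizontal axis) of each measured member (points) and the list median (bar) for 35 gene lists (vertical axis), with members beyond 4 drawn at 4; the keratinocyte list is left out since 5 of its members have a group with no counts. Immune and stromal medians lie to the right of 0, up to 1.15 for MHC class II, metabolic medians lie near 0, and red blood cell markers at -1.89.

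Myeloid genes were above additivity in most cases, without a call. The macrophage and monocyte list had 19 of 20 positive, with a median of 0.58 that ran from 0.27 without IgG replicate 2 to 0.96 without propafenone replicate 4. Lyz2, the lysozyme of macrophages, averaged 103 ± 40.2 CPM in combination, 32.3 ± 18.2 CPM in propafenone, 53.3 ± 11.4 CPM in anti-PD-1 and 23.6 ± 15.2 CPM in IgG tumours, with an interaction of 0.50 (95% interval -0.82 to 1.81). It rose against propafenone by 1.67 log2 units (SE 0.45, adjusted p = 0.047), a call that held in 6 of the 20 fits without 1 library. Ccr2, the receptor that brings monocytes from the blood, averaged 4.38 ± 1.13 CPM in combination, 1.77 ± 1.04 CPM in propafenone, 1.75 ± 0.889 CPM in anti-PD-1 and 1.51 ± 0.752 CPM in IgG tumours, with an interaction of 1.09 (95% interval -0.12 to 2.30). Mgl2, a lectin of alternatively activated macrophages, had 1.95, 1.70, 4.31, 4.54 and 1.84 CPM in combination tumours, 0.557, 0.488, 0.341, 1.0 and 0.456 CPM in propafenone tumours, 0.463, 0.845, 1.26, 1.45 and 1.47 CPM in anti-PD-1 tumours, and 0.491, 0.50, 0.232, 0.563 and 0.368 CPM in IgG tumours. The 5 combination tumours lay above the other 15. Its interaction was 0.98 (SE 0.54, 95% interval -0.13 to 2.10), and the rise against propafenone was 2.33 log2 units (SE 0.39, adjusted p = 0.013), held in 19 of the 20 fits without 1 library. The alternatively activated macrophage list had 11 of 12 positive, with a median of 0.48 that ran from 0.11 without IgG replicate 2 to 0.81 without propafenone replicate 5. It had 1 member at an unadjusted p under 0.05. That member was Retnla, a secreted protein of the resistin family, at 0.597, 0.71, 9.41, 4.21 and 0.460 CPM in combination tumours, 0, 0, 0, 0 and 0.179 CPM in propafenone tumours, 0, 0.845, 0.0998, 1.04 and 0.419 CPM in anti-PD-1 tumours, and 0, 0.968, 0, 0.750 and 0 CPM in IgG tumours. Its interaction was 5.89 (SE 2.06, 95% interval 1.56 to 10.21) and rests on propafenone tumours at or near 0. Arg1, arginase, had a value below 0, at -2.21 (95% interval -4.59 to 0.18).

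The dendritic cell, B cell, neutrophil and mast cell lists had few and scarce members. The chemokine, type I interferon and NF-kappaB target lists had 18, 18 and 13 tested members, at medians of 3.38, 8.92 and 3.79 CPM. Dendritic cell markers had 10 of 11 positive with a median of 0.52 (0.27 without IgG replicate 2 to 0.82 without anti-PD-1 replicate 3), and 3 of 11 were at an unadjusted p under 0.05 above additivity, beside 1.30% of all genes. These were Naaa (0.62, 95% interval 0.12 to 1.13), a lipid amidase, Clec9a (2.16, 95% interval 0.30 to 4.02), a receptor for dead cells on cross-presenting dendritic cells, and Wdfy4 (1.36, 95% interval 0.04 to 2.68), which those cells need for cross-presentation. Naaa averaged 15 ± 3.23 CPM in combination, 9.38 ± 2.04 CPM in propafenone, 8.88 ± 0.963 CPM in anti-PD-1 and 8.54 ± 1.73 CPM in IgG tumours. B cell markers had 6 of 7 positive with a median of 0.79 (0.47 without anti-PD-1 replicate 4 to 1.51 without anti-PD-1 replicate 1). Beside Ighm, the kappa light chain gene Igkc had an interaction of 2.46 (95% interval -0.03 to 4.95). Pax5, the factor that defines B cells, averaged 0.178 CPM in combination, 0.189 CPM in propafenone, 0.0748 CPM in anti-PD-1 and 0.134 CPM in IgG tumours with an interaction of 0.73 (95% interval -1.67 to 3.12). Ms4a1 and Blk were too scarce to be tested. Neutrophil markers had 6 of 6 positive with a median of 0.62 (0.34 without IgG replicate 5 to 1.03 without propafenone replicate 5). Their sum was 29.1 CPM in combination 3, against 4.70 to 7.28 CPM in the other 4 combination tumours. Mast cell markers had 6 of 7 positive with a median of 0.47 (0.07 without IgG replicate 2 to 0.89 without anti-PD-1 replicate 3). Chemokines had 15 of 18 positive with a median of 0.49 (0.27 without IgG replicate 2 to 0.77 without propafenone replicate 4) and 2 at an unadjusted p under 0.05, Ccl11 (1.49, 95% interval 0.25 to 2.73), which attracts eosinophils, and Ccl4 (1.42, 95% interval 0.05 to 2.80). Ccl2, which attracts monocytes, averaged 11.0 ± 1.37 CPM in combination, 4.84 ± 3.17 CPM in propafenone, 4.54 ± 1.37 CPM in anti-PD-1 and 3.90 ± 1.64 CPM in IgG tumours, with an interaction of 0.97 (95% interval -0.08 to 2.02). The type I interferon list had 14 of 18 positive with a median of 0.31 (0.08 without IgG replicate 2 to 0.53 without anti-PD-1 replicate 3). The NF-kappaB target list had 8 of 13 positive with a median of 0.14, a sign that changed with a filter at 1 CPM and in 2 of 20 fits without 1 library.

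**Figure D5:**
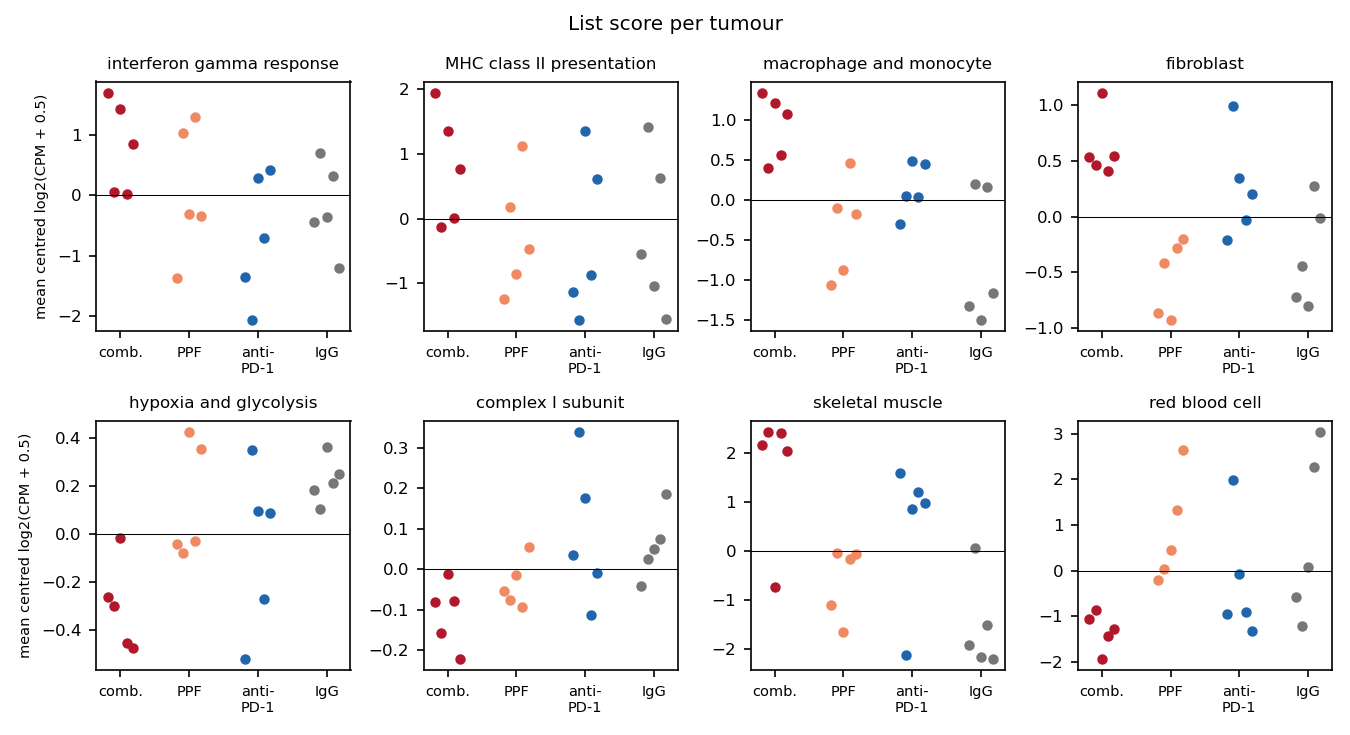
List score of each tumour (vertical axis, mean over members of centred log2(CPM + 0.5)) in the 4 groups of 5 tumours for 8 lists. Interferon gamma and MHC class II scores overlap between all groups, while fibroblast scores of all 5 combination tumours lie above those of all propafenone and IgG tumours.

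Fibroblast genes were mostly above additivity, and some of them rose in combination against propafenone tumours. 14 of 16 members were positive with a median of 0.52, which ran from 0.39 without IgG replicate 4 to 0.71 without anti-PD-1 replicate 2, and 2 were at an unadjusted p under 0.05, Lum and Col6a1. Against propafenone 10 of 16 rose (1.67% of all genes did) and 0 fell. That count rested on single libraries: it was 3, 6, 2 and 2 without propafenone 1, 2, 3 or 5, and 4, 4, 2, 3 and 2 without combination 1 to 5. In every fit without 1 library Lum and Postn were among those called. No member was called without the libraries above 1 CPM of Krt5, which leaves 2 combination and 4 propafenone tumours, and 6 were without the filter on low counts. Postn, the matrix protein periostin, had 56.3, 39.8, 60.2, 51.6 and 47.7 CPM in combination tumours, 15.6, 24.9, 11.6, 20.3 and 22.8 CPM in propafenone tumours, 34.8, 27.5, 42.9, 32.6 and 34.4 CPM in anti-PD-1 tumours, and 14.9, 20.1, 14.6, 22.9 and 18.3 CPM in IgG tumours. Combination tumours overlapped with anti-PD-1 tumours only, and propafenone tumours overlapped with IgG tumours. The mean of 51.1 CPM stood against 36.2 CPM expected, with an interaction of 0.50 (SE 0.25, 95% interval -0.03 to 1.02). The rise against propafenone was 1.42 log2 units (SE 0.18, adjusted p = 0.0019) and held in 20 of the 20 fits without 1 library. Col6a1, a collagen VI chain, averaged 59.1 ± 4.40 CPM in combination, 31.0 ± 7.47 CPM in propafenone, 49.9 ± 21 CPM in anti-PD-1 and 44.3 ± 17.3 CPM in IgG tumours, with an interaction of 0.76 (95% interval 0.002 to 1.53). Skeletal muscle marker sums also had their highest median in combination tumours (571 CPM, against 96.2 CPM in propafenone, 238 CPM in anti-PD-1 and 21.3 CPM in IgG tumours). With the muscle score as covariate the fibroblast median was 0.55 and the macrophage median 0.57. Endothelial markers had 11 of 14 positive with a median of 0.20 (0.08 without propafenone replicate 3 to 0.33 without anti-PD-1 replicate 5). Pecam1, an adhesion molecule of endothelium, averaged 45.3 ± 4.22 CPM in combination, 26.7 ± 8.29 CPM in propafenone, 41.6 ± 3.77 CPM in anti-PD-1 and 33.1 ± 8.33 CPM in IgG tumours, with an interaction of 0.43 (95% interval -0.10 to 0.96). Tek, the angiopoietin receptor, had an interaction of 1.14 (95% interval -0.09 to 2.38). Both rose against propafenone, by 0.76 log2 units (SE 0.18, adjusted p = 0.031) and 2.17 log2 units (SE 0.43, adjusted p = 0.022), calls that held in 13 and 17 of the 20 fits without 1 library. Adipocyte markers had 8 of 9 positive with a median of 0.74 (0.45 without combination replicate 4 to 1.07 without combination replicate 3), and their sum was 36.2 to 75.7 CPM in combination, 19.8 to 32.2 CPM in propafenone, 19.8 to 65.5 CPM in anti-PD-1 and 20.2 to 42.3 CPM in IgG tumours.

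Melanocyte lineage, cell cycle and biosynthesis genes had values close to additivity, mostly with narrow intervals. In the melanocyte lineage list 6 of 15 were positive with a median of -0.03, and 14 of 15 intervals lay within 2-fold. Mitf, the master factor of the lineage, averaged 695 ± 128 CPM in combination, 487 ± 154 CPM in propafenone, 594 ± 266 CPM in anti-PD-1 and 467 ± 126 CPM in IgG tumours, with an interaction of 0.16 (95% interval -0.81 to 1.14). Tyr, the rate-limiting pigment enzyme, had an interaction of -0.15 (95% interval -0.46 to 0.17) and Sox10 0.17 (95% interval -0.13 to 0.47). Cell cycle genes had 13 of 22 positive with a median of 0.03, and all 22 intervals lay within 2-fold. Cholesterol synthesis genes had 11 of 19 positive with 0.02, all 19 within 2-fold. The ATF4 and unfolded protein response list had 6 of 17 positive with -0.07, and 11 of 17 intervals lay within 2-fold. Among the cardiac and voltage-gated channel genes, which include targets of propafenone in the heart, 9 of 13 were tested, with 5 of 9 positive and a median of 0.16. Their intervals were wide (median standard error 0.51), and only 1 of 9 lay within 2-fold, so departures of these genes were hardly bounded. The medians of the cell cycle, cholesterol, ATF4 and channel lists each changed sign in at least 1 alternative setting.

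Ferroptosis genes, named in the series title, gave no call in the interaction, and their list medians lay near additivity. Ferroptosis suppressors had 12 of 20 positive with a median of 0.02, drivers 7 of 18 with -0.10, iron handling genes 7 of 14 with -0.04, and NRF2 targets 8 of 16 with -0.02. Intervals lay within 2-fold for 18 of 20 suppressors, 11 of 18 drivers, 13 of 14 iron handling genes and 14 of 16 NRF2 targets. Against propafenone tumours 1 of 20 suppressors was called higher (1.67% of all genes were) and 2 of 16 NRF2 targets lower (2.21% of all genes were). No driver or iron handling gene was called there. The signs of the suppressor, iron handling and NRF2 medians flipped in at least 1 alternative setting each, that of the drivers in none of those run. Gpx4, the glutathione peroxidase that removes lipid peroxides, had 221, 207, 219.7, 203 and 189 CPM in combination tumours, 203, 214, 277, 226 and 255 CPM in propafenone tumours, 221, 353, 281, 212 and 244 CPM in anti-PD-1 tumours, and 242, 255, 269.6, 258 and 292 CPM in IgG tumours. Combination values lay at the low end of the range and overlapped with the propafenone and anti-PD-1 tumours. The mean of 208 CPM stood against 234 CPM expected, an interaction of -0.17 (SE 0.16, 95% interval -0.50 to 0.16), which excludes a departure of 1.5-fold in either direction at that per-gene level. Hmox1, haem oxygenase, which frees iron, had 81.8, 85.2, 139, 79.2 and 76.7 CPM in combination tumours, 108, 93.4, 145, 89.9 and 175 CPM in propafenone tumours, 55.9, 133, 225, 78.0 and 103 CPM in anti-PD-1 tumours, and 96.9, 160.4, 159, 113 and 170.3 CPM in IgG tumours. The groups overlapped, and the interaction of -0.17 (SE 0.43, 95% interval -1.07 to 0.73) includes 2-fold below additivity. Slc7a11, the cystine importer, averaged 11.7 ± 2.28 CPM in combination, 8.49 ± 3.09 CPM in propafenone, 17.9 ± 11.2 CPM in anti-PD-1 and 12.7 ± 2.41 CPM in IgG tumours, with an interaction of -0.03 (95% interval -1.01 to 0.95). Acsl4, which loads membranes with oxidisable fatty acids, averaged 40.6 ± 3.71 CPM in combination, 51.1 ± 7.45 CPM in propafenone, 38.6 ± 9.43 CPM in anti-PD-1 and 41.9 ± 5.75 CPM in IgG tumours, with an interaction of -0.21 (95% interval -0.64 to 0.22). Tfrc, the transferrin receptor, averaged 569 ± 64.0 CPM in combination, 671 ± 51.0 CPM in propafenone, 606 ± 131 CPM in anti-PD-1 and 617 ± 60.2 CPM in IgG tumours, with an interaction of -0.21 (95% interval -0.56 to 0.14). Fth1, the ferritin heavy chain, averaged 998 ± 70.2 CPM in combination, 1039 ± 65.0 CPM in propafenone, 1107 ± 204 CPM in anti-PD-1 and 1177 ± 104 CPM in IgG tumours, with an interaction of 0.03 (95% interval -0.25 to 0.31). Alox12, a lipoxygenase, was the only driver at an unadjusted p under 0.05, with an interaction of 2.01 (95% interval 0.12 to 3.89). It averaged 0.633 CPM in combination, 0.415 CPM in propafenone, 0.337 CPM in anti-PD-1 and 0.895 CPM in IgG tumours, and IgG 5 alone had 3.24 CPM against at most 0.426 CPM in the other IgG tumours. In the JNK and AP-1 list 2 of 16 were positive with a median of -0.22, which ran from -0.40 without anti-PD-1 replicate 1 to -0.05 without anti-PD-1 replicate 3. Of these 16, 1 was called lower against propafenone tumours. Jun averaged 36.0 ± 8.23 CPM in combination, 56.6 ± 21.6 CPM in propafenone, 47.6 ± 25.2 CPM in anti-PD-1 and 53.9 ± 9.98 CPM in IgG tumours, with an interaction of -0.48 (95% interval -1.34 to 0.39). Mapk8, which encodes JNK1, averaged 15.2 ± 1.68 CPM in combination, 24.3 ± 7.67 CPM in propafenone, 19.5 ± 5.68 CPM in anti-PD-1 and 20.8 ± 5.41 CPM in IgG tumours, with an interaction of -0.59 (95% interval -1.22 to 0.05).

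Nuclear complex I genes and hypoxia genes lay mostly below additivity, by mostly small amounts and without a call in the interaction. Of 36 nuclear complex I subunits 7 were positive, beside 48.3% of all genes. The median was -0.11, and all 36 intervals lay within 2-fold. At an unadjusted p under 0.05, 5 of 36 were below additivity, beside 1.73% of all genes, among them Ndufs1, Ndufc2 (-0.25, 95% interval -0.43 to -0.07) and Ndufv2 (-0.23, 95% interval -0.42 to -0.05). Ndufv2, a subunit of the NADH-oxidising module, averaged 152 ± 5.59 CPM in combination, 175 ± 4.18 CPM in propafenone, 180.1 ± 15.8 CPM in anti-PD-1 and 178 ± 13.3 CPM in IgG tumours, and its 5 combination tumours lay below the other 15. Leaving out 1 library took the complex I median from -0.15 without anti-PD-1 replicate 4 to -0.04 without anti-PD-1 replicate 2. Genes encoded in mitochondrial DNA had 4 of 13 positive with a median of -0.03 that turned positive with library totals, TPM or the muscle covariate, all within 2-fold. The gene mt-Nd1, also a complex I subunit, averaged 2727 ± 155 CPM in combination, 2602 ± 142 CPM in propafenone, 3223 ± 511 CPM in anti-PD-1 and 2806 ± 299.8 CPM in IgG tumours, with an interaction of -0.13 (95% interval -0.40 to 0.14). Mitophagy and quality control genes had 4 of 20 positive with -0.08. In the hypoxia and glycolysis list 0 of 24 were positive, and the median of -0.16 ran from -0.26 without anti-PD-1 replicate 1 to -0.09 without anti-PD-1 replicate 2. Of its 24 intervals 19 lay within 2-fold. Against propafenone tumours 5 of 24 hypoxia, 4 of 20 mitophagy and 1 of 36 complex I genes were called lower (2.21% of all genes were). Calls of that comparison rested on single libraries, as given above. Members of these lists share the same tumours and can move together, so the counts are not separate observations. Vegfa, the angiogenic factor induced by hypoxia, had 172, 167, 245, 147 and 154 CPM in combination tumours, 283, 265, 604, 191 and 554 CPM in propafenone tumours, 114, 264, 308, 190.4 and 228 CPM in anti-PD-1 tumours, and 321, 340.3, 375, 249 and 257 CPM in IgG tumours. Propafenone 3 and 5 stood high, and the 5 combination tumours overlapped with every group except for the IgG tumours, all of which were higher. The mean of 177 CPM stood against 272 CPM expected, an interaction of -0.62 (SE 0.41, 95% interval -1.48 to 0.24). Against propafenone Vegfa fell by 1.10 log2 units (SE 0.29, adjusted p = 0.045), a call that held in 6 of the 20 fits without 1 library. Pdk1, which turns pyruvate away from mitochondria, averaged 156 ± 11.4 CPM in combination, 220.4 ± 35.1 CPM in propafenone, 192 ± 35.9 CPM in anti-PD-1 and 229 ± 23.8 CPM in IgG tumours, with an interaction of -0.24 (95% interval -0.59 to 0.12).

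Markers of other tissues varied widely between libraries of a group. Red blood cell genes had 0 of 8 positive with a median of -1.89, which was -0.22 without anti-PD-1 2. Their sum was 172 to 453 CPM in combination, 769.7 to 6593 CPM in propafenone, 307 to 5773 CPM in anti-PD-1 and 290.5 to 11687 CPM in IgG tumours, and 5 libraries, propafenone 4 and 5, anti-PD-1 2 and IgG 4 and 5, were above 1000 CPM of the haemoglobin gene Hbb-bs. Keratinocyte genes had 2 of 12 positive with a median of -5.25, of which 5 had a group with no counts. With those set at a floor of 3 counts over the group the median was -3.33, without those 5 genes it was -1.74, and without anti-PD-1 3 it was -2.35. In limma it was -0.73 with voom and -0.15 on log2(TPM + 1). Krt5, a keratin of basal epidermis, had 1.66, 0.0789, 1.60, 5.66 and 0.0593 CPM in combination tumours, 0, 4.79, 0, 0 and 0.554 CPM in propafenone tumours, 0.224, 0, 21.9, 1.23 and 0 CPM in anti-PD-1 tumours, and 0, 0, 0.0664, 0 and 0 CPM in IgG tumours. Single libraries, anti-PD-1 3 above all, held most of it. Skeletal muscle genes had 8 of 19 positive with a median of -0.03, and the sign changed in 11 of 20 fits without 1 library. Ckm, the creatine kinase of muscle, averaged 35.8 ± 16.5 CPM in combination, 3.40 ± 2.23 CPM in propafenone, 11.4 ± 7.88 CPM in anti-PD-1 and 1.95 ± 0.747 CPM in IgG tumours, against 19.9 CPM expected in the combination, with an interaction of 0.85 (95% interval -1.12 to 2.82).

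A combination that stands apart from the other groups need not depart from additivity. In 54 genes (0.340%) all 5 combination tumours were above the other 15, and in 53 (0.334%) all 5 were below. Xist, the RNA that silences an X chromosome in female cells, is of the first kind, at 9.26, 6.19, 12.6, 8.29 and 10.8 CPM in combination tumours, 2.75, 4.36, 2.66, 5.08 and 3.99 CPM in propafenone tumours, 5.59, 5.94, 3.74, 5.82 and 5.19 CPM in anti-PD-1 tumours, and 2.90, 0.855, 2.22, 3.63 and 1.46 CPM in IgG tumours. Anti-PD-1 tumours lay above all IgG tumours, and propafenone tumours overlapped with both of these groups. The mean of 9.43 CPM was close to the 8.95 CPM expected, with an interaction of 0.07 (SE 0.41, 95% interval -0.79 to 0.94), and the rise against propafenone was 1.32 log2 units (SE 0.29, adjusted p = 0.027), held in 14 of the 20 fits without 1 library. Csf1r, the growth factor receptor of macrophages, averaged 21.5 ± 6.88 CPM in combination, 6.75 ± 4.12 CPM in propafenone, 11.5 ± 2.63 CPM in anti-PD-1 and 5.85 ± 4.65 CPM in IgG tumours, with the combination apart and an interaction of 0.70 (95% interval -0.71 to 2.12). Ccl7, a monocyte chemokine, averaged 8.12 ± 0.571 CPM in combination, 2.68 ± 1.86 CPM in propafenone, 3.22 ± 1.24 CPM in anti-PD-1 and 1.93 ± 0.914 CPM in IgG tumours, with an interaction of 0.86 (95% interval -0.27 to 1.99). Oas2, an interferon-induced antiviral enzyme, averaged 5.95 ± 1.93 CPM in combination, 2.17 ± 1.43 CPM in propafenone, 2.28 ± 0.833 CPM in anti-PD-1 and 1.78 ± 1.2 CPM in IgG tumours, with an interaction of 1.10 (95% interval -0.26 to 2.46). Sugt1, Cript and Ndufv2 are of the second kind.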

How the data were processed

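RNA of 20 tumours was sequenced from SMARTER mRNA libraries, per the labels' protocols. The deposited gene table holds expected counts that the authors stored as whole numbers without scaling, and a second deposited table holds TPM, used only as an alternative. Per the submitters' processing notes, the builds were GRCm38 and mm10, and HISAT2 2.2.1, SAMtools 1.9 and FastQC were used. The counting tool, annotation release and strand setting are not given in the sources used here, so genes that overlap or share near-identical copies (haemoglobin, H2, Gbp and immunity-related GTPase families) are uncertain. Low values of 4 and 8 are overrepresented, so 1 count need not be 1 fragment.

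Counts were rounded and fitted in edgeR 4.0.16 under R 4.3.3 (filterByExpr, TMM, robust quasi-likelihood, 1 mean per group, 16 residual degrees of freedom, common biological coefficient of variation 0.252). The filter kept 15875 genes with 99.98% of counts. Benjamini-Hochberg adjustment covered all genes tested, at a threshold of 0.05, for the interaction and 4 simple effects. SE is the size of the log2 value over the square root of F, and the expected combination level is the product of the propafenone and anti-PD-1 mean CPM over the IgG mean. Alternatives used DESeq2 1.42.0, limma 3.58.1, other scalings and filters, pseudocounts of 0.1 and 1 on TPM, counts divided by 4, a replicate block, a muscle covariate and left-out libraries. The code was tested on simulated data. Gene positions come from GENCODE M21, which held 32158 of the identifiers. Promoters come from RefSeq GRCm38.p6.

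Named genes are the 10 of smallest interaction p per direction (mean of at least 1 CPM, same direction without any 1 library), a panel of 22 genes and up to 3 members per list by interaction p. Some of them are not reported here. Csf1r, Ccl7, Igtp, Irgm2, Pcdhga10, Krt1 and Rasal2 were chosen after their values were seen. The members and the 36 lists were chosen with earlier results of these data known. No libraries were copies of each other: over 190 pairs, chi-square per degree of freedom was at least 4.43. Replicate numbers did not pair libraries.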

Additional observations from a re-analysis of the deposited data

Results flagged for a closer look

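In 22 of 324 groups of 5 tumours checked, 1 tumour stood far from the other 4 of its group for a gene named above (a gap over 0.71 of the group's range). Chance alone flags about 1 in 20 groups of independent normal values. CPM values need not be normal, and a group with only 1 tumour above 0 is always flagged. The groups also share the same tumours, so the chance rate for these data is not known.

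Combination 3 held 138.9 CPM of Hmox1 (the others at most 85.2), 244.7 CPM of Vegfa (at most 172), 8.81 CPM of Arg1 (at most 2.98), and, on the low side, 16.4 CPM of Ankfn1 (the others at least 28.8) and 6.83 CPM of Ckm (at least 38.1). Combination 1 held 0.502 CPM of Ifng (the others at most 0.142), 920.3 CPM of Mitf (at most 658) and 1.49 CPM of Ccl4 (at most 0.697). Combination 2 held 5.85 CPM of Lama2 (at most 4.82), and combination 5 held 4.32 CPM of Arhgap25 (at most 2.80).

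Krt5 was flagged in 1 tumour of each group: 5.66 CPM in combination 4, 4.79 CPM in propafenone 2, 21.9 CPM in anti-PD-1 3 and 0.0664 CPM in IgG 3. The last is a trace, flagged because the other IgG tumours were at 0. Anti-PD-1 3 also held 10.7 CPM of Krt1 (the others at most 0.347), 72.8 CPM of Tiprl (at most 56.8) and 86.1 CPM of Sugt1 (at most 76.9). Anti-PD-1 5 held 1.40 CPM of Igkc (at most 0.466), and anti-PD-1 2 held 1526.4 CPM of Hbb-bs (at most 257.9). Propafenone 3 held 758 CPM of Tfrc (at most 668). Propafenone 5 held 0.179 CPM of Retnla, with the other 4 propafenone tumours at 0. IgG 5 held 3.24 CPM of Alox12 (at most 0.426).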

How the results depend on the processing

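The interaction called 0 genes in edgeR, with other scalings and filters, with counts divided by 4, with the muscle covariate, without the Hbb-bs libraries, in limma on voom and on TPM, and in all 20 fits without 1 library (range 0 to 0, with 267 to 1065 genes at an unadjusted p under 0.05). It called 2 in DESeq2, and 1 without the libraries above 1 CPM of Krt5, an alternative chosen after seeing the data. With the replicate block, which is no true pairing, it called 0 (440 at an unadjusted p under 0.05). Correlations of the 30 pairs of equal number averaged -0.00744 (-0.483 to 0.521), and 7 of 20 libraries correlated best with their own number.

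For combination minus propafenone, 616 calls became 347 with library totals, 335 without a filter, 1466 in DESeq2, 937 in voom, 1147 without the Hbb-bs libraries and 1 without the Krt5 libraries. Without 1 library they ranged from 4 to 1916, and the replicate block gave 675. Combination minus anti-PD-1 called 7 in DESeq2, 2 on log2(TPM + 1), 1 without the Krt5 libraries and 0 to 1 without 1 library. Propafenone minus IgG called 3 in DESeq2 and 0 to 0 without 1 library. Anti-PD-1 minus IgG called 21 in DESeq2, 12 without the Hbb-bs libraries and 0 to 1 without 1 library. The cause was not tested.

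Of 137 genes under the naming rule, 12 changed the sign of their interaction in at least 1 of 14 other settings and 12 without 1 library, and 0 were called. Of 36 list medians, 12 changed sign in at least 1 other setting and 13 without 1 library.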
